A study of Mus musculus with 24 samples.

Results

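Neurotrophins are small secreted proteins that neurons use to support survival, growth and synaptic plasticity, and the genes described here are 3 of them, 4 receptors through which they act, and 1 further trophic factor: Bdnf, Ntf3 and Ntf5 (the ligands), Ntrk2, Ntrk3, Ngfr and Sort1 (the receptors), and Gdnf. Their members on the array were all probes outside the control spots whose printed transcript accession belongs to one of these 8 genes, whatever they measured. This gave 15 of the 56605 unique probes, for 8 of the 23787 genes that could be named. Bdnf, Ntf3, Ntf5 and Ngfr have 1 probe each, Ntrk2 and Gdnf have 2, Sort1 has 3 and Ntrk3 has 4.

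RNA came from the hippocampus of 48 male Swiss-Webster mice aged 12 weeks, housed singly, with 8 animals in each of 6 groups. Corticosterone-treated mice drank 100 µg/mL corticosterone with 0.45% hydroxypropyl-β-cyclodextrin through the 12 h dark phase, and control mice, their brothers, drank water with the same 0.45% cyclodextrin, so the solvent is shared by all groups. Animals were killed in the first, the fifth or the ninth hour of the following light phase, in which mice rest. Whole hippocampus was used, so fewer cells of a type and less RNA per cell cannot be told apart. Each of the 24 arrays carried RNA of 1 control mouse in Cy3 and of 1 corticosterone-treated mouse in Cy5, with no exchange of dyes. A probe that takes up one dye better than the other therefore shifts every comparison of treated with control mice, and such a shift cannot be told apart from a constant effect of corticosterone. It cancels when one hour is compared with another.

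BDNF and NT-4, the product of Ntf5, bind the receptor tyrosine kinase TrkB (gene Ntrk2), and NT-3 (Ntf3) binds TrkC (Ntrk3). Both receptor genes also give rise to truncated forms without the kinase, and in the brain much of the truncated TrkB is made by astrocytes. The low-affinity receptor p75NTR (Ngfr) and sortilin (Sort1) together bind the uncleaved proneurotrophins, and sortilin also sorts BDNF within the cell. In the hippocampus, BDNF acting on TrkB is known for its part in long-term potentiation, and glucocorticoids such as corticosterone are known to act on its transcription.

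Across the arrays, 60.8 to 67.2% of spots in Cy3 and 64.0 to 73.5% in Cy5 were well above background, and no spot was saturated. The 12 markers of hippocampal neurons were all above background, with summed intensities between 195299 and 244018 in single animals. Of 7 choroid plexus markers, Kcne2 was above background in no animal. Ttr, Kl, Aqp1 and Clic6 were well above it in all 48 channels, Folr1 in 39 and Otx2 in 21. Groups were compared by the separate channel test of limma, with p values adjusted by the Benjamini and Hochberg procedure over all 56605 probes and significance at an adjusted p under 0.05. Fold changes are given as log2 of corticosterone over control with the standard error of the fit, and n is 8 animals per group. The paper states that each group held mice of several litters. Litter did not enter the fit, so littermates within a group counted as independent animals.

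Corticosterone-treated mice differed from controls in probes of 3 of the 8 genes: Ntrk2, Ntrk3 and Sort1. A gene with several probes has more chances to enter such a count. With each gene taken by its brightest probe, Ntrk2 and Sort1 passed at each hour and the others at none. Among all named genes taken in this way, 20.7, 20.8 and 15.6% passed at the 3 hours. Both Ntrk2 probes were higher at each hour, 1 Ntrk3 probe was lower at each hour, and Sort1 had one probe that was higher and another that was lower. Of the 15 probes, 4 passed the test in the first hour (3 higher and 1 lower), while 17.5% of all probes did (8.85% higher and 8.67% lower). In the fifth hour 5 probes passed (3 higher and 2 lower), against 18.1% of all probes (8.62 and 9.47%). In the ninth hour 5 passed (3 higher and 2 lower), against 14% (7.01 and 6.97%). The median difference over the 15 probes was 0.017, 0.028 and 0.0037 at the 3 hours, and over all probes -0.00092, 0.00095 and 0.00063. Over the 13 probes other than those of Gdnf, the largest of these differences was 0.25 on the log2 scale. The ligands and Ngfr did not pass at any hour.

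**Figure D1:**
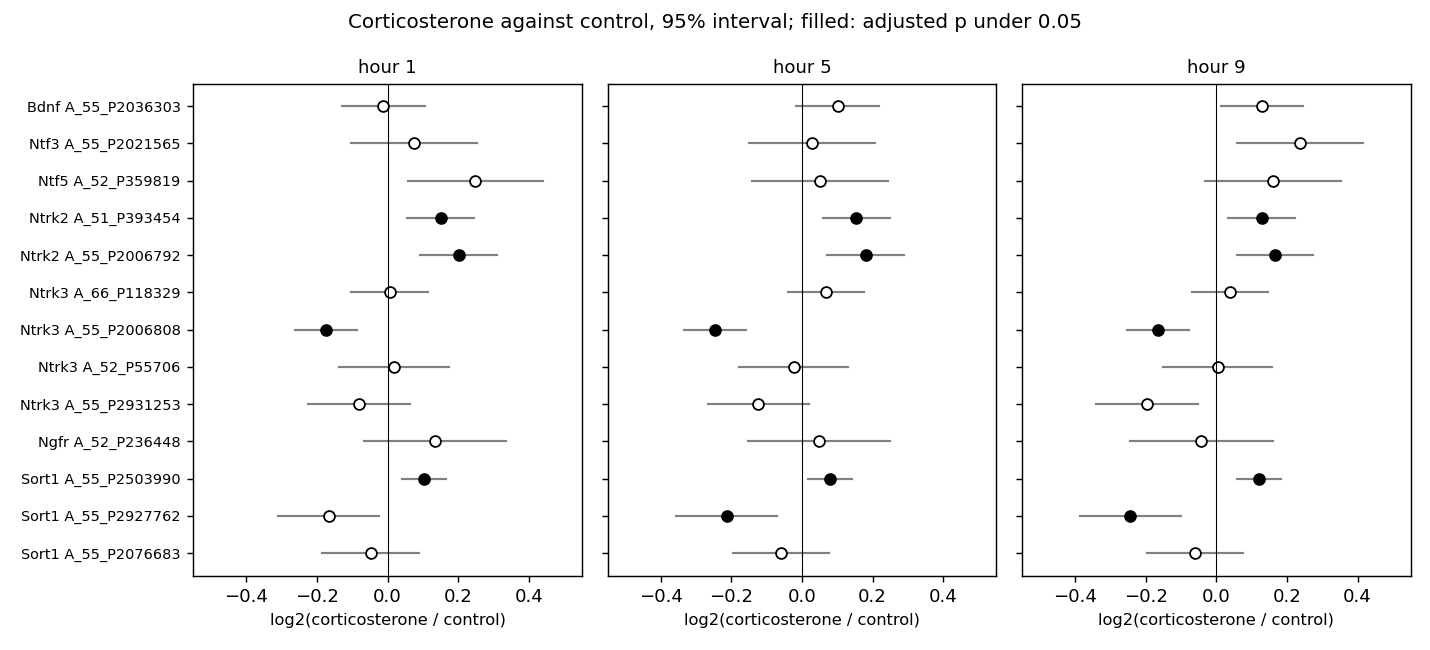
Log2 fold change of corticosterone-treated over control mice (horizontal axis) with its 95% interval for the 13 probes of the 7 genes measured above background, by hour of the light phase; filled points have an adjusted p under 0.05. Both Ntrk2 probes lie above 0 at each hour, while the Ntrk3 probe A_55_P2006808 lies between -0.25 and -0.17.

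Bdnf, the ligand of TrkB, was measured by 1 probe, A_55_P2036303, which names transcript NM_007540; the gene lies at chr2:109674700-109727043 (GRCm38.p6, RefSeq) and has 12 transcripts there that start from several promoters. In the first hour the intensity ranged from 1136 over a median of 1474 to 1680 in control mice and from 1155 over 1470 to 1582 in treated mice. In the fifth hour it ranged from 1321 over 1450 to 1701 in controls and from 1435 over 1541 to 1701 in treated mice. In the ninth hour the control values ran from 1226 over 1412 to 1579 and the treated values from 1483 over 1539 to 1661. The groups overlapped at every hour, and in the ninth hour 5 of the 8 controls lay below the lowest treated animal. The difference was -0.013 ± 0.058 in the first hour (SE, adjusted p = 0.91), 0.10 ± 0.058 in the fifth (adjusted p = 0.207) and 0.13 ± 0.058 in the ninth (adjusted p = 0.104), so no hour passed the test. The 95% interval of the first-hour difference ran from -0.13 to 0.10. Treated animals of the ninth hour were also the most alike, with an SD of 3.61% of the mean, against 11.2% in controls of the first hour. The ninth-hour difference passed with Aquantile normalization of all arrays (0.14, adjusted p = 0.0463) and without the arrays of slide 3 (0.18, adjusted p = 0.0477). It missed the threshold under the 12 other alternatives (up to 0.485) and in all 24 fits with a single array left out (up to 0.23).

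RefSeq's promoter table holds 7 windows for Bdnf, and the 250 bases before each start were searched on both strands for letters known from hormone and activity response elements: the palindromic glucocorticoid response element, made of AGAACA and TGTTCT with any 3 bases between them, its half-site AGAACA, and the cyclic AMP response element TGACGTCA and its half-site TGACG, which lies within it. These windows are shown because Bdnf is transcribed from several promoters and the treatment is a glucocorticoid. The half-site AGAACA occurred in 3 of the Bdnf windows (the first, the second and the sixth), and 16.1% of all 32851 windows in the table hold it. The second window is not printed here. TGACG occurred in 1 Bdnf window, and 17.8% of all windows hold it. Neither full element was in a Bdnf window; they occur in 0.00913 and 1.55% of all windows. The first, the third and the sixth Bdnf window, all on the plus strand of chromosome 2, are given 5′ to 3′ with the half-sites in capitals, at chr2:109674450-109674699, chr2:109692186-109692435 and chr2:109709133-109709382.
Bdnf window 1, AGAACA: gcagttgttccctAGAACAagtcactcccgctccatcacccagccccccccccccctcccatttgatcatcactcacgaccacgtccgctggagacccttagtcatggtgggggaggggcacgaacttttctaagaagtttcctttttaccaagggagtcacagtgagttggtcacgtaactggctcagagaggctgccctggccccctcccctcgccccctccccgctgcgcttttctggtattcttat
Bdnf window 3, TGACG on the other strand: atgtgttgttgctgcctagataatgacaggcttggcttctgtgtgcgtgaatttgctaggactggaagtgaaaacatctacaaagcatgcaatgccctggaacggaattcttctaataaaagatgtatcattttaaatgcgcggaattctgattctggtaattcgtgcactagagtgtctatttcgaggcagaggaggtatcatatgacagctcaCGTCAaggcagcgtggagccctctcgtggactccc
Bdnf window 6, AGAACA: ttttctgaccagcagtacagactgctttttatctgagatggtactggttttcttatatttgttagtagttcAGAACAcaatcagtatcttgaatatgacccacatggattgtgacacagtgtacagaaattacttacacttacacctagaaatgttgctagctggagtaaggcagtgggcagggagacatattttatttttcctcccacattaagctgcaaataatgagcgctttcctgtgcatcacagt
The position of the Bdnf probe in its transcript is not known here, so the values above were not assigned to any of these starts.

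Ntf3, which encodes NT-3 (chr6:126101412-126166772), had group means close to one another in the first 2 time points. The difference was 0.075 ± 0.089 in the first hour (adjusted p = 0.59) and 0.028 ± 0.089 in the fifth (adjusted p = 0.856). In the ninth hour the intensity ranged from 891 over a median of 1082 to 1303 in controls and from 1128 over 1274 to 1339 in treated mice, and 6 of the 8 controls lay below the lowest treated animal. The difference of 0.24 ± 0.089 then missed the threshold (adjusted p = 0.052), with the treated mouse higher on 6 of 8 arrays. One treated mouse of the fifth hour stood at 600, when the next lowest was at 1066. Without that array, replicate 7 of the fifth hour, the ninth-hour difference was still 0.24 and passed (adjusted p = 0.00552). It also passed without replicate 3 or 8 of the ninth hour (0.0374 and 0.0322) or replicate 1 of the fifth (0.0491), and without slide 3 (0.00904). With all arrays kept it passed when the 2 animals of an array were treated as a pair (0.0223), in the deposited ratios (0.0141), with processed signals (0.0055), with Aquantile normalization (0.036), and when dim probes were left out by intensity (0.0323) or by background (0.0362). It missed the threshold under 7 other alternatives (up to 0.351) and in 20 of the fits with a single array left out (up to 0.175).

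Ntf5, the gene of NT-4 (chr7:45413695-45417179), lay near the lower end of what the arrays measure, with a mean intensity of 47.8. Between 6 and 8 of the 8 animals of each group were well above background. First-hour values ranged from 37.7 over a median of 44.4 to 56.2 in controls and from 48.4 over 53.8 to 58.8 in treated mice, with 6 of 8 controls below all treated animals. The difference was 0.25 ± 0.095 and did not pass (adjusted p = 0.0725), nor did 0.052 ± 0.095 in the fifth hour (adjusted p = 0.808) or 0.16 ± 0.095 in the ninth (adjusted p = 0.274). Without replicate 4 of the first hour the first-hour value was 0.31 and passed (adjusted p = 0.0381), and without replicate 8 of the ninth hour the adjusted p was 0.0483. The first-hour difference was 0.12 in the deposited ratios and passed there (adjusted p = 0.0469), and it was 0.11 with an offset of 50 and 0.066 without background correction (adjusted p = 0.0725 and 0.181). It missed the threshold under 12 of the alternatives (up to 0.278) and in 22 of the fits with a single array left out (up to 0.156).

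**Figure D2:**
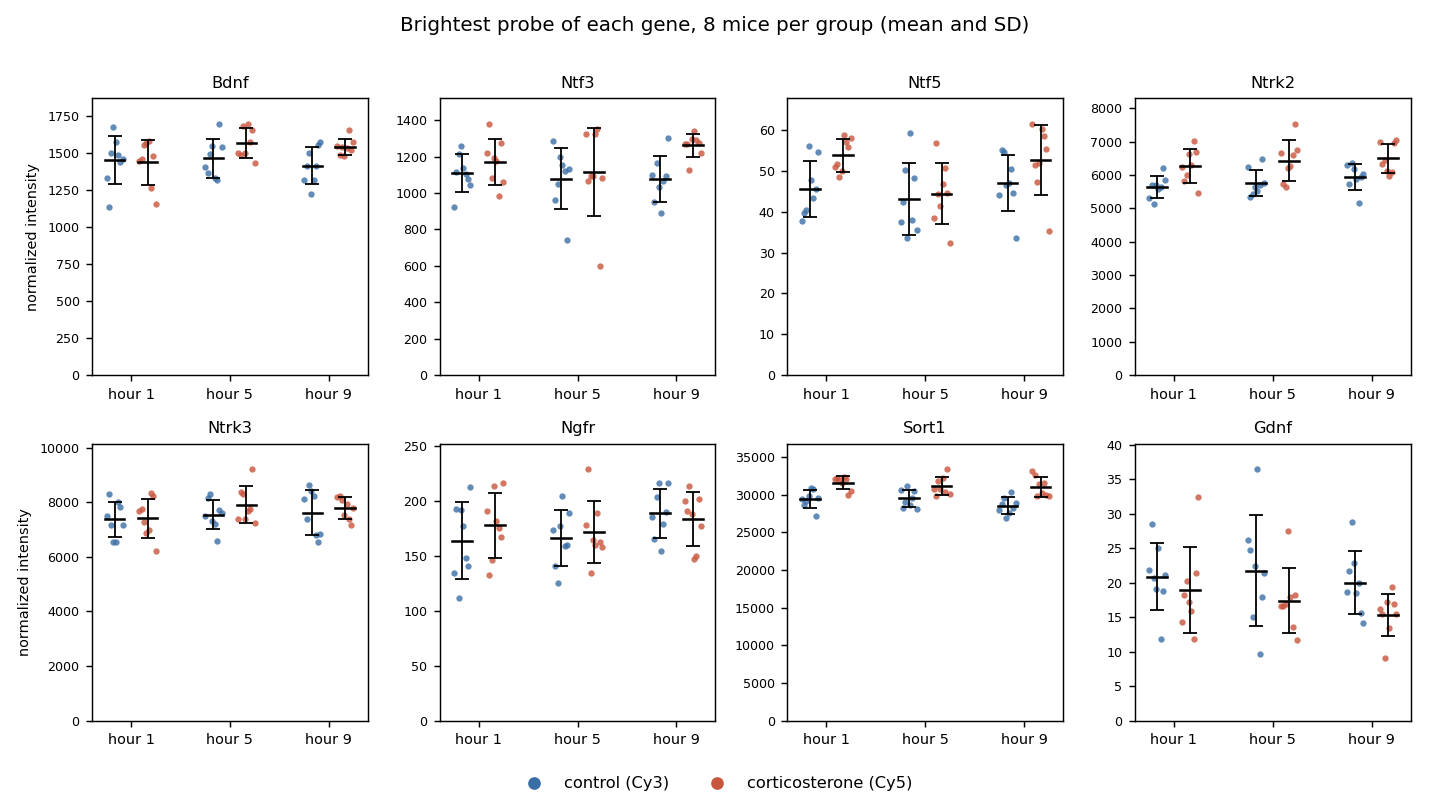
Normalized intensity (vertical axis, from 0) of the brightest probe of each gene in every mouse, 8 control and 8 corticosterone-treated mice per hour; horizontal bars and whiskers are mean and SD. Ntrk2 and Sort1 sit higher in treated mice at each hour with overlapping groups, and the Bdnf means lie between 1416 and 1569.

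Ntrk2, the gene of the BDNF receptor TrkB (chr13:58806472-59133970), was higher in treated mice by both of its probes and at all 3 hours. The brighter probe, A_51_P393454 (NM_001025074), ranged in the first hour from 5137 over a median of 5671 to 6220 in controls and from 5458 over 6268 to 7006 in treated mice. In the fifth hour controls ran from 5331 over 5669 to 6473 and treated mice from 5629 over 6434 to 7540. In the ninth hour they ran from 5147 over 5987 to 6346 and from 5983 over 6400 to 7034. The groups overlapped each time, with 5, 4 and 4 of 8 treated mice above all controls of their hour. The difference was 0.15 ± 0.047 in the first hour (adjusted p = 0.0129, higher on 7 of 8 arrays), 0.15 ± 0.047 in the fifth (adjusted p = 0.0108, 8 of 8 arrays) and 0.13 ± 0.047 in the ninth (adjusted p = 0.041, 7 of 8 arrays), which is a rise to between 1.09 and 1.11 times the control level.

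The second Ntrk2 probe, A_55_P2006792 (NM_008745), ran in the first hour from 4230 over 4760 to 5562 in controls and from 5038 over 5655 to 5942 in treated mice. Its fifth-hour values ran from 4238 over 5348 to 5791 and from 5196 over 5739 to 6433, and its ninth-hour values from 4437 over 4853 to 5277 and from 4883 over 5469 to 6376. Here too the groups overlapped, although 7 of 8 treated mice of the ninth hour lay above all controls. The differences were 0.20 ± 0.054, 0.18 ± 0.054 and 0.17 ± 0.054 (adjusted p = 0.00406, 0.00934 and 0.0214), with the treated mouse higher on 6, 7 and 8 of 8 arrays. Mean log2 ratios within single slides were above 0 for both probes on all 3 slides at each hour, from 0.078 to 0.25. The ninth-hour call of A_51_P393454 was lost when any of replicates 1, 2, 6, 7 or 8 of that hour was left out (adjusted p between 0.0756 and 0.113), and that of A_55_P2006792 without replicate 2 or 6 (0.0686 and 0.0706); in the first hour A_51_P393454 lost its call without replicate 6 (0.0565), slide 1 (0.0508) or slide 2 (0.213), and A_55_P2006792 without slide 3 (0.0814). The ninth-hour call of A_51_P393454 was also lost with an offset of 0 (0.0634) and with processed signals (0.0741). Without slide 3 neither probe passed in the fifth hour (0.17 and 0.214), and in the ninth neither passed without any one slide (0.0839 to 0.186).

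The 2 Ntrk2 probes were set against each other in how their ratio on the same array moved between hours, which removes a constant dye difference. Their difference in log2 ratio was -0.049 ± 0.17 in the first hour and -0.037 ± 0.12 in the ninth (SD, n = 8 arrays each). It moved by 0.012, which was not significant (exact two-sided permutation test over 12870 splits, p = 0.872; 1 pair was tested). Over the 48 channels, centred within each dye, the intensities of both probes had a correlation of 0.35, given here as a description. RefSeq has 1 promoter window for Ntrk2, and none of the 4 motifs was in the 250 bases before its start site, which lies within the annotated gene. As the promoter of the gene that was higher by both probes, the first 153 of these bases, which lie before the annotated start of the gene, are shown, on the plus strand at chr13:58806319-58806471.
Ntrk2 window: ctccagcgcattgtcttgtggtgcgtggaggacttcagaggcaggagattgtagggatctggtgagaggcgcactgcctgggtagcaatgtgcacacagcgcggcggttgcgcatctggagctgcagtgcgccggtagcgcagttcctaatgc
Nothing is in capitals there because no motif matched, which says only that these letters are not among the bases searched.

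Astrocytes are a known source of truncated TrkB, and their markers differed between the groups in both directions. Of 11 astrocyte markers, 4 were higher and 2 lower in treated mice of the first hour, 4 and 3 in the fifth, and 2 and 2 in the ninth, with a median difference of 0.040, -0.061 and -0.077. These are 54.5, 63.6 and 36.4% of the list, against 20.7, 20.8 and 15.6% of all 23787 named genes, each taken by its brightest probe. Their summed intensity, in which Aldoc is by far the brightest with a mean of 72568, ranged from 116956 to 142340 in controls and from 133834 to 164657 in treated mice of the first hour, from 118900 to 143595 and from 136823 to 149925 in the fifth, and from 124250 to 139566 and from 131115 to 140154 in the ninth. Their part in the Ntrk2 difference was not tested.

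Ntrk3, the gene of the NT-3 receptor TrkC (chr7:78179986-78581034), gave a different picture by probe. Its second brightest probe, A_55_P2006808 (NM_182809), was lower in treated mice at each hour. In the first hour controls ran from 5823 over a median of 5988 to 6523, and treated mice from 4820 over 5319 to 5745. The groups did not overlap then, which was so for 1.59% of all probes at that hour (1.04 and 1.64% at the other two hours, where no member probe had groups apart). In the fifth hour controls ran from 5807 over 6148 to 6848 and treated mice from 4766 over 5119 to 5895, with 7 of 8 treated mice below all controls. In the ninth hour the values were 5444 over 5736 to 7104 and 5042 over 5304 to 5730, with 6 of 8 below. The differences were -0.17 ± 0.044, -0.25 ± 0.044 and -0.17 ± 0.044 (adjusted p = 0.00167, 1.74e-05 and 0.00363), and the treated mouse was lower on 8, 8 and 7 of 8 arrays. These calls held without any single array, with an adjusted p of at most 0.033 in the ninth hour, but were lost without slide 3 in the first hour (0.0534) and without slide 1 or 3 in the ninth (0.0611 and 0.0591).

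The other 3 Ntrk3 probes did not pass. The brightest, A_66_P118329 (NM_008746), differed by 0.0054 ± 0.054, 0.067 ± 0.054 and 0.038 ± 0.054 at the 3 hours (adjusted p = 0.961, 0.374 and 0.669). Its 95% interval in the fifth hour, from -0.041 to 0.18, lay apart from that of A_55_P2006808, from -0.33 to -0.16. The probe A_52_P55706, which names the same transcript as A_55_P2006808, differed by 0.017 ± 0.077, -0.024 ± 0.077 and 0.0037 ± 0.077 (adjusted p = 0.898, 0.862 and 0.98). The dimmest, A_55_P2931253, with a mean intensity of 126, differed by -0.081 ± 0.071, -0.12 ± 0.071 and -0.20 ± 0.071 (adjusted p = 0.465, 0.212 and 0.0551). Its ninth-hour value passed without replicate 2 or 6 of that hour (0.0159 and 0.0424). It also passed without replicate 7 of the fifth hour (0.0467), replicate 8 of the first (0.0457) or slide 2 (0.0488). The same held when dim probes were left out of the test by intensity (0.0442) or by background (0.0473). The ninth-hour value missed the threshold under 11 other alternatives (up to 0.366) and in 20 of the fits with a single array left out (up to 0.212). A constant dye difference at single probes and a difference between transcript forms cannot be told apart here. Ntrk3 as a whole therefore has no single direction in these data.

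**Figure D3:**
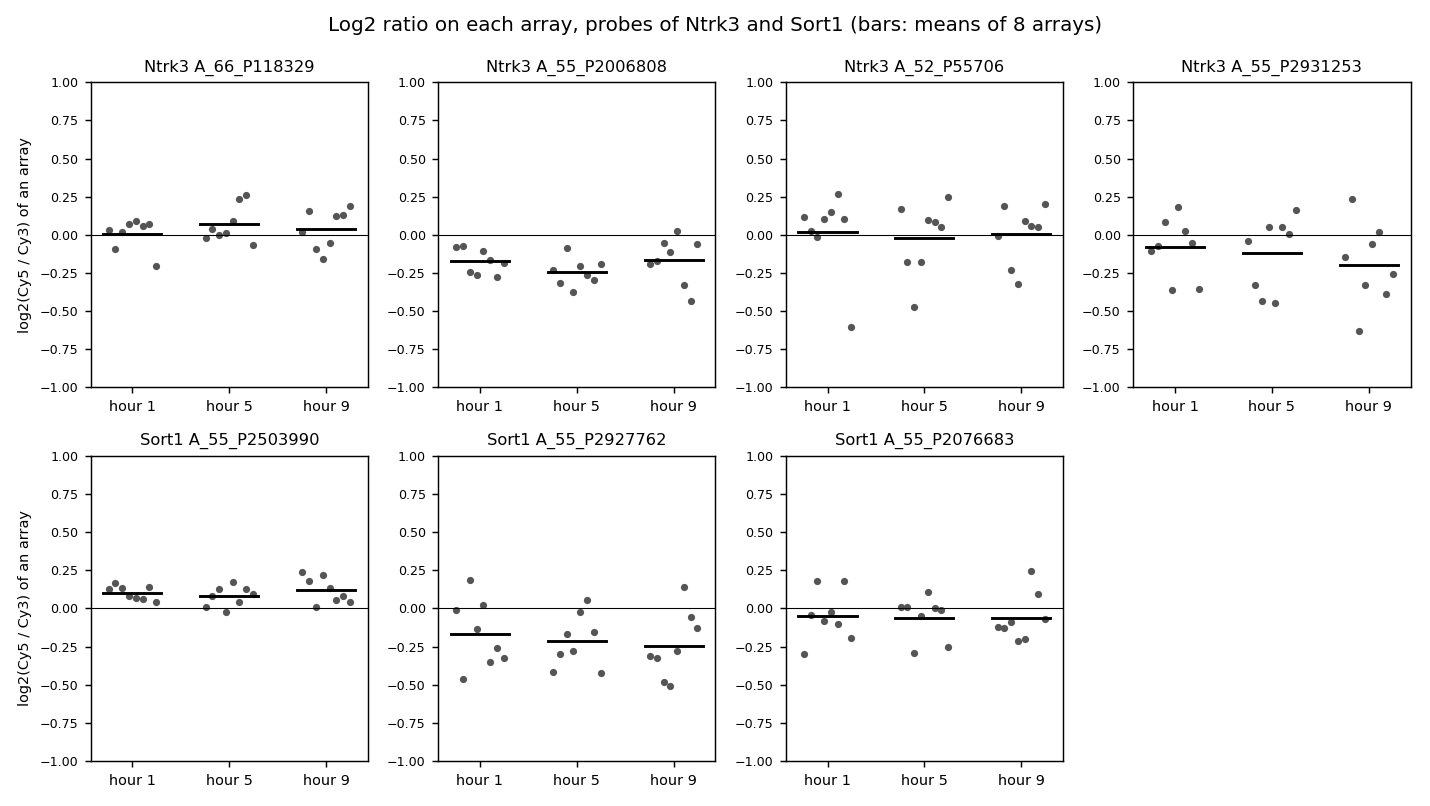
Log2 ratio of Cy5 (corticosterone) over Cy3 (control) on each array (points, 8 per hour) with the mean (bars) for the 4 probes of Ntrk3 and the 3 probes of Sort1. On 23 of 24 arrays A_55_P2006808 lies below 0, while the brightest Ntrk3 probe spreads around 0, and the means of the 2 brighter Sort1 probes lie on opposite sides of 0, although A_55_P2927762 is above 0 on 2, 1 and 1 arrays and A_55_P2503990 below 0 on 1 array of the fifth hour.

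Ngfr, which encodes p75NTR (chr11:95568818-95587698), was dim but well above background in all animals, with a mean intensity of 175. Values ranged in the first hour from 111 over 163 to 213 in controls and from 132 over 178 to 216 in treated mice, so that the groups covered nearly the same range. Its difference was 0.13 ± 0.10 in the first hour, 0.048 ± 0.10 in the fifth and -0.042 ± 0.10 in the ninth (adjusted p = 0.386, 0.793 and 0.817). The interval in the first hour ran from -0.068 to 0.34.

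Sort1, the gene of sortilin (chr3:108283974-108361519), had one probe that rose and one that fell. The very bright A_55_P2503990 (NM_001271599) ran in the first hour from 27209 over 29484 to 30884 in controls and from 30012 over 31997 to 32380 in treated mice, and 6 of 8 treated mice lay above all controls. Its fifth-hour values ran from 28121 over 29276 to 31216 and from 29886 over 30753 to 33394, with 5 of 8 controls below all treated mice. In the ninth hour it ran from 26875 over 28555 to 30342 and from 29824 over 30761 to 33084, with 7 of 8 controls below all treated mice. The difference was small and even: 0.10 ± 0.031 in the first hour (adjusted p = 0.0056), 0.079 ± 0.031 in the fifth (adjusted p = 0.0335) and 0.12 ± 0.031 in the ninth (adjusted p = 0.00161), higher on 8, 7 and 8 of 8 arrays. The fifth-hour call was lost without replicate 2, 3, 5, 7 or 8 of that hour (adjusted p between 0.0534 and 0.119) and when the 2 animals of an array were treated as a pair (0.0722). It was also lost with an offset of 0 (0.0712), in the deposited ratios (0.0566) and without slide 1, 2 or 3 (0.0585, 0.223 and 0.23). The first-hour call was lost without slide 1 or 2 (0.0649 and 0.0692) and the ninth-hour call without slide 1 (0.268).

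The Sort1 probe A_55_P2927762 (NM_019972) went the other way. In the first hour it ran from 750 over 804 to 1006 in controls and from 606 over 741 to 853 in treated mice. It ran in the fifth hour from 743 over 876 to 1000 and from 622 over 785 to 900, and in the ninth from 713 over 945 to 1146 and from 679 over 785 to 916. The groups overlapped, with 5 of 8 controls of the ninth hour above all treated mice. The difference was -0.17 ± 0.071 in the first hour (adjusted p = 0.0804), -0.21 ± 0.071 in the fifth (adjusted p = 0.0232) and -0.24 ± 0.071 in the ninth (adjusted p = 0.0114), lower on 6, 7 and 7 of 8 arrays. By slide, the ninth-hour mean ratio ran from -0.41 on slide 1, which held 4 arrays of that hour, to -0.067, and without slide 1 it was -0.079 (adjusted p = 0.688). The ninth-hour call was also lost without replicate 3 or 4 (0.0502 and 0.0548), the fifth-hour call without replicate 1, 2 or 8 (0.0838, 0.0527 and 0.0776), and the first hour passed without replicate 3 (0.0313). Leaving out slide 1, 2 or 3 also ended the fifth-hour call (0.138, 0.0522 and 0.0856), and the first hour passed without slide 2 (0.0372) and with processed signals (0.0493). Without slide 3 the first-hour difference was -0.081 (adjusted p = 0.608), and its mean ratio on slide 2 was 0.024, against -0.24 and -0.31 on slides 1 and 3.

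The third Sort1 probe, A_55_P2076683, which names the same transcript as the brightest, differed by -0.048 ± 0.068, -0.060 ± 0.068 and -0.060 ± 0.068 (adjusted p = 0.655, 0.589 and 0.569). Sort1, like Ntrk3, thus has probes that disagree, whereas the 2 probes of Ntrk2 moved the same way.

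Gdnf, a trophic factor of the TGF-β superfamily that signals through the Ret kinase (chr15:7810048-7837580), was near background by both probes. The group medians of A_55_P2045896 and A_55_P2745662 lay between 14.5 and 21.9, and at most 1 of 8 animals of any group was well above background. No fold change is given for it, and a difference was not detectable at this signal.

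Between hours no member passed. In control mice, in treated mice and in the change of the corticosterone effect, 0 of the 15 probes passed in any of the 3 comparisons between hours by limma, and at an unadjusted p under 0.05 there was 1 probe from the first to the fifth hour and 2 from the fifth to the ninth hour in treated mice and 0 elsewhere. Of all 56605 probes, 5394 and 5835 had such a p in these 2 comparisons. In control mice 0.0053, 0.537 and 0.0336% of all probes passed from the first to the fifth, the first to the ninth and the fifth to the ninth hour. In treated mice 0.546, 4.02 and 0.661% passed, and of the changes of effect 0.0389, 0.827 and 0.083%. These comparisons hold each dye constant.

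The widest shift in controls was that of Ngfr, 0.23 ± 0.12 from the first to the ninth hour (adjusted p = 0.522). In treated mice Ntf5 fell by 0.29 from the first to the fifth hour (SE 0.11), which did not pass (adjusted p = 0.291), and stood 0.25 higher again in the ninth (adjusted p = 0.37). Bdnf differed by 0.11 ± 0.068 between the ninth and the first hour in treated mice (adjusted p = 0.464) and by -0.034 ± 0.068 in controls (adjusted p = 0.921), a change of effect of 0.14 ± 0.082 (adjusted p = 0.769). The Ntf3 effect was 0.21 ± 0.13 larger in the ninth than in the fifth hour (adjusted p = 1). For the 5 probes called at any hour, the effect of the ninth hour minus that of the first was -0.022 ± 0.067 for Ntrk2 A_51_P393454, -0.035 ± 0.076 for Ntrk2 A_55_P2006792, 0.0086 ± 0.062 for Ntrk3 A_55_P2006808, 0.018 ± 0.044 for Sort1 A_55_P2503990 and -0.077 ± 0.10 for Sort1 A_55_P2927762 (adjusted p = 1 for each).

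The genes whose levels followed Bdnf most closely over the 48 channels, centred within each dye, were Kcna4 (r = 0.73), a voltage-gated potassium channel, Ankrd34a (0.63), Gm10324 (0.61), 3300002P13Rik (0.61) and Nkapd1 (0.60). Those closest to the brightest Ntrk2 probe were Poglut1 (0.78), Brk1 (0.77), Samm50 (0.75), Nsmce3 (0.75) and Aco1 (0.74). Each was taken from 15436 genes, and channels of one array share hybridization, so these values are descriptions. Bdnf and the brightest Ntrk2 probe had a correlation of 0.14 with each other.

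Genes that act beside the neurotrophins were followed in 6 lists, each gene by its brightest probe. Among all 23787 named genes taken in this way, 20.7% passed in the first, 20.8% in the fifth and 15.6% in the ninth hour, and the shares of the lists ran from 8.33 to 34.8%. Of 52 genes of Trk signalling, the relay from the activated receptor to Ras, PI3 kinase and phospholipase C, 6 were higher and 4 lower in the first hour, 4 and 9 in the fifth, and 6 and 6 in the ninth. Their median difference was between -0.0017 and 0.012. The small GTPase Rap1a was lower at all hours (-0.46, -0.46 and -0.43, SE 0.051; adjusted p = 8.02e-10, 1.68e-09 and 2.03e-08). The adaptor Grb2 (0.21, 0.18 and 0.13, adjusted p = 5.31e-05, 0.000477 and 0.00938) and the GTPase Hras (0.25, 0.25 and 0.18, adjusted p = 7.67e-05, 6.96e-05 and 0.00505) were higher at each hour. The kinase Akt2 was higher in the ninth hour (0.24, adjusted p = 0.000305), with -0.073 in the first (adjusted p = 0.291), and the effects of these 2 hours differed by 0.32 (adjusted p = 0.00464), as that of 1.45% of all genes changed in either direction.

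Of 23 measured partners of p75NTR and relatives of sortilin, 3 were higher and 3 lower in the first hour, 3 and 5 in the fifth, and 3 and 2 in the ninth, with medians between 0.0078 and 0.036. The Nogo receptor Rtn4r, which forms a complex with p75NTR, was higher at all hours (0.21, 0.21 and 0.37, adjusted p = 0.0143, 0.0107 and 3.75e-05), and the myelin protein Mag, one of its ligands, was lower (-0.27, -0.42 and -0.30). Tnfrsf19, a relative of p75NTR, was lower in the first and the fifth hour (-0.22 and -0.15, adjusted p = 0.000414 and 0.0179), and its effect was higher by 0.33 in the ninth (adjusted p = 0.00214), when the difference was 0.10 (adjusted p = 0.116). Sorcs3, of the sortilin family, was higher in the ninth (0.15, adjusted p = 0.0284). Oligodendrocyte markers, of which Mag is one, had 2 of 10 higher and 3 lower in the first hour, 3 and 3 in the fifth, and 2 and 3 in the ninth. These are 50, 60 and 50% of the list, against 20.7, 20.8 and 15.6% of all named genes. Their summed intensities overlapped at each hour, and in the fifth ran from 63855 to 89914 in controls and from 62168 to 78213 in treated mice. The part of these markers in the Mag difference was not tested.

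Among 25 genes that cleave, package or carry proneurotrophins, 3 were higher and 3 lower in the first hour, 2 and 3 in the fifth, and 2 and 1 in the ninth. Syt4, a synaptotagmin on BDNF vesicles, was lower at each hour (-0.36, -0.27 and -0.16, adjusted p = 2.46e-06, 0.000205 and 0.0296), as was the proprotein convertase Pcsk6 in the first 2 (-0.32 and -0.29). Plat, the gene of tissue plasminogen activator, was higher at each hour (0.26, 0.19 and 0.20, adjusted p = 0.00173, 0.0195 and 0.0185), and carboxypeptidase E, Cpe, a sorting receptor for proBDNF, was lower in the fifth (-0.25, adjusted p = 0.00274). In the family of GDNF, 2 of 12 genes were higher and 0 lower in the first hour, 1 and 0 in the fifth, and 1 and 1 in the ninth. Nrtn, neurturin, was higher in the first hour (0.25, adjusted p = 0.000328). Its receptor Gfra2 was higher in the first and the fifth (0.24 and 0.17), and its effect fell by 0.30 from the first to the ninth hour (adjusted p = 0.0195), when the difference was -0.061 (adjusted p = 0.462).

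Of 24 genes that Trk signalling is known to induce, 4 were higher and 3 lower in the first hour, 4 and 1 in the fifth, and 2 and 0 in the ninth. Junb was higher at each hour (0.38, 0.41 and 0.29, adjusted p = 0.000263, 9.37e-05 and 0.00588), Arc in the first (0.45, adjusted p = 0.0115) and Vgf in the fifth (0.14, adjusted p = 0.0257). Egr3 was lower in the first and the fifth hour (-0.18 and -0.15), and Spry2, an inhibitor of the pathway, was lower in the first (-0.23, adjusted p = 0.0134). Arc and Fos fell from the first to the ninth hour in controls, by 0.64 and 0.96 (adjusted p = 0.0295 and 0.0476), and in treated mice by 0.96 and 1.09; 0.837 and 6.23% of all genes changed between these hours in controls and in treated mice. Of 31 regulators of Bdnf transcription, 4 were higher and 4 lower in the first hour, 5 and 4 in the fifth, and 4 and 2 in the ninth. The glucocorticoid receptor gene Nr3c1 was lower in treated mice, by -0.54, -0.55 and -0.18 at the 3 hours (adjusted p = 2.26e-10, 2.74e-10 and 0.0173), and the mineralocorticoid receptor gene Nr3c2 by -0.25 and -0.24 in the first and the fifth. Srf, the serum response factor, was higher at each hour (0.35, 0.35 and 0.29), and Npas4, an activity-dependent factor, in the ninth (0.41, adjusted p = 0.0311). Bdnf itself, as given above, passed at none of these hours.

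**Figure D4:**
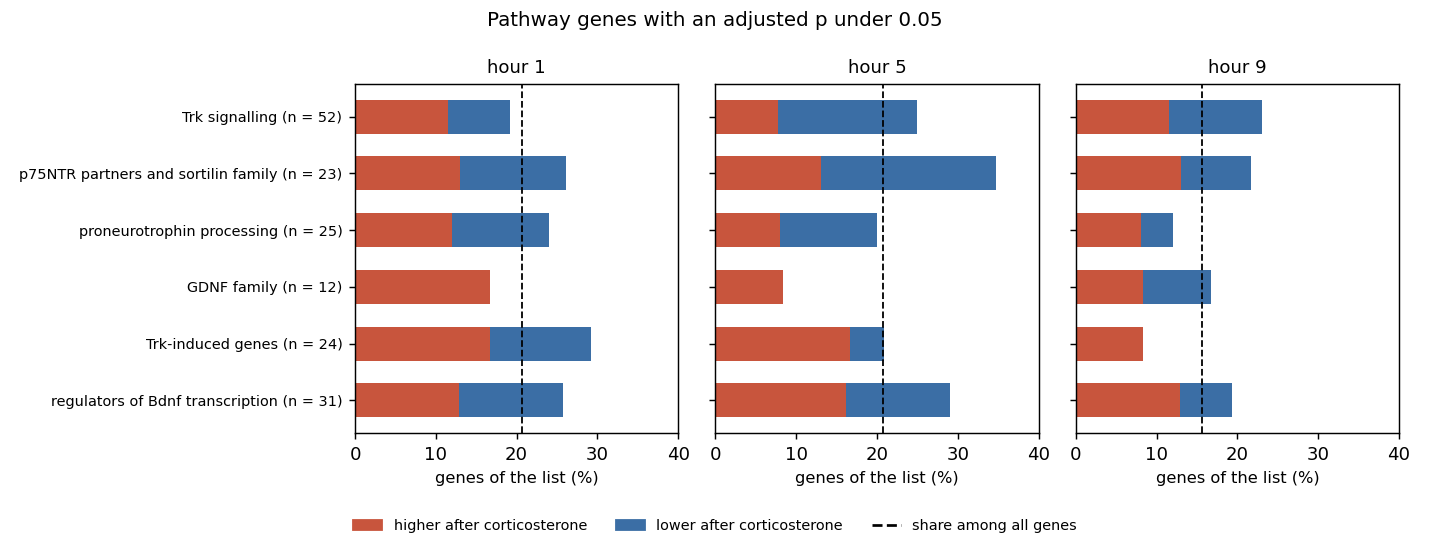
Percent of the genes of each list (horizontal axis) that were higher (red) or lower (blue) in corticosterone-treated mice with an adjusted p under 0.05, by hour; the dashed line is the share among all named genes, 20.7, 20.8 and 15.6%. The bars end on both sides of that line.

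Markers of other cell types are read against the 20.7, 20.8 and 15.6% of all named genes that passed at the 3 hours. Endothelial markers had 1 of 8 higher and 4 lower in treated mice of the first hour (62.5%), and their summed intensity did not overlap, from 11591 to 13452 in controls and from 8376 to 10904 in treated mice. Flt1 and Cldn5 are the brightest in this sum, with means of 4897 and 2914. Of all single probes, 1.59% had groups that did not overlap in that hour, and no such share was worked out for sums. In the fifth hour 1 was higher and 3 lower, and in the ninth 1 and 1 (50 and 25%), with sums that overlapped at both hours (11594 to 14061 against 9576 to 11878, and 10490 to 12786 against 10297 to 11903). Inhibitory neuron markers had 5 of 8 higher in the fifth hour (62.5%), with sums from 78532 to 90652 in controls and from 90993 to 99072 in treated mice. In these sums Sst is the brightest, with a mean of 39258. None of the inhibitory neuron markers passed in the first hour and 3 were higher in the ninth (37.5%), with overlapping sums (81472 to 94145 against 81551 to 98891, and 81230 to 95058 against 92057 to 98431). Of the 12 hippocampal neuron markers 1, 2 and 2 were higher at the 3 hours and 0 lower (8.33, 16.7 and 16.7%), which is below or close to the share of all genes. Of 9 microglia markers 0 were higher and 3 lower in the first hour, 1 and 3 in the fifth, and 0 and 2 in the ninth (33.3, 44.4 and 22.2%), with sums that overlapped at each hour. Thalamus markers, which would mark tissue next to the hippocampus, had 2, 1 and 0 of 6 higher and 0 lower (33.3, 16.7 and 0%), and their sum in the first hour ranged from 6493 to 7607 in controls and from 6835 to 12350 in treated mice. The lists of oligodendrocyte precursors, mural cells, fibroblasts and meninges, choroid plexus, cholinergic neurons and blood cells had at most 1 gene higher and 1 lower at any hour. The part of the marker differences in the Ntrk2, Ntrk3 and Sort1 values was not tested.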

How the data were processed

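The authors hybridized hippocampal RNA of 48 mice on 24 two-color Agilent arrays and read them with the Feature Extraction software. The deposited scanner files hold the median intensity of each spot and its local background in both channels, not normalized, beside processed signals. A further deposited table holds probe log2 ratios (Cy5 over Cy3), which lay closest to loess-normalized ratios without quantile normalization (median absolute difference 0.00119 against 0.0101). Genome build and aligner do not apply to these values.

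Here the median intensities were corrected by normexp (offset 50 for p values, 0 for fold changes, standard errors and intensities), normalized by loess within and quantile between arrays, and fitted in R 4.3.3 with limma 3.58.1 and statmod 1.5.0 by the separate channel test over 6 groups (intraspot correlation 0.279). Control spots (3671 of 62976) and outlier spots were left out and copies of a probe averaged. Probes were named through RefSeq accessions (34566 of 56605 probes); figures were drawn in Python 3.11.15. The steps were tested on simulated data. For each list, up to 4 genes per comparison with an intensity of 50 or more, an adjusted p under 0.05 and the smallest adjusted p were eligible to be named, each by its brightest probe, and a selection of these is given. The members and lists were chosen with earlier results of these data known. Which animals of an array were brothers is not stated; the 2 channels of an array were paired only through the intraspot correlation. Alternatives were other background corrections, normalizations, filters and fits, single slides and arrays left out, and the deposited log2 ratios.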

Additional observations from a re-analysis of the deposited data

Results flagged for a closer look

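In 6 of the 90 groups of 8 animals formed by the 15 probes, 1 animal stood far from the others by Dixon's test at the 95% level, and chance gives about 1 in 20 such groups. Ntf3 had a treated mouse of the fifth hour at 600.1, with the next at 1066. Ntrk3 probe A_52_P55706 had a treated mouse of the first hour at 1470, with the next at 2406, and a control of the fifth hour at 3751, with the next at 2854. A control of the ninth hour had an Ntf5 intensity of 33.7, with the next at 44.2. For Gdnf probe A_55_P2745662 a treated mouse of the first hour was at 11.4 and one of the ninth hour at 4.88, both not well above background.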

How the results depend on the processing

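The 14 calls of member probes kept their direction under all alternatives, and in 47 of 532 values the call was lost, with slides or arrays left out in all but 5 of them. The count of called probes in the first hour was 2 without slide 1 and 2 without slide 3. In the fifth hour it was 3 without slide 1, 3 without slide 2 and 1 without slide 3, and in the ninth hour 0 without slide 1. Leaving out a slide removes 2 to 4 of the 8 arrays of an hour, so fewer samples enter these fits. With single arrays left out the counts ranged from 3 to 5 in the first hour, from 3 to 5 in the fifth and from 4 to 7 in the ninth. In a test of log2 ratios, with the array pair as replicate block, 4, 4 and 6 probes were called; Sort1 A_55_P2503990 lost its fifth-hour call (adjusted p = 0.0722) and Ntf3 passed in the ninth hour (adjusted p = 0.0223), while no other call changed. With slide as a block the counts were 4, 5 and 5. Between hours, no member was called under any alternative.

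Of the probes that were not called, 38 of 947 values changed sign. For Bdnf in the first hour these were 0.0036 with Aquantile, 0.087 without slide 3 and 0.014 in the deposited ratios, and single arrays left out gave -0.066 to 0.034. For Ntf3 it was -0.018 without slide 1 in the first hour, and single arrays gave -0.0065 to 0.075 in the fifth. Ntf5 in the fifth hour was -0.050 with processed signals and -0.0057 without slide 1, with -0.0014 to 0.11 over single arrays. For Ntrk3 A_66_P118329 in the first hour the values were -0.015 with processed signals, -0.014 with Aquantile, -0.027 without slide 2 and -0.0077 in the deposited ratios (-0.0065 to 0.035 over single arrays), and -0.0021 without slide 3 in the ninth. For Ntrk3 A_52_P55706 they were -0.00044 and -0.019 without slides 1 and 2 in the first hour (-0.018 to 0.11 over single arrays), 0.0093 with processed signals, 0.073 without slide 2 and 0.00029 in the deposited ratios in the fifth (-0.062 to 0.040), and -0.020 and -0.038 without slides 2 and 3 in the ninth (-0.025 to 0.051). Ngfr was -0.057 without slide 1 in the fifth hour (-0.044 to 0.11 over single arrays), and Sort1 A_55_P2076683 was 0.018 without slide 1 in the ninth.

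Ntf3 in the ninth hour, which missed the threshold, passed under 7 alternatives and missed it under 7, and with single arrays left out it passed in 4 cases and missed it in 20; the difference ran from 0.17 to 0.30 and the adjusted p from 0.0055 to 0.351. Bdnf in that hour passed under 2 alternatives and missed it under 12 (adjusted p up to 0.485), and Ntrk3 A_55_P2931253 passed under 3 and missed it under 11 (up to 0.366). With single arrays left out, A_55_P2931253 passed in 4 cases and missed the threshold in 20. Ntf5 and Gdnf lie where the signal over background limits any ratio, and the number of arrays limits the precision of all values.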
